A study of Macaca mulatta and Mus musculus with 5 samples.

Results

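Class-II-low B cells of the mouse meninges were Ms4a1-positive B cells with little or no Rag1, little or no transcript of the class II gene H2-Aa and none of the low-affinity IgE receptor gene Fcer2a. They were chosen in the mouse count table among barcodes with 300 or more detected genes, as those with at least 2 UMIs of Ms4a1, at least 3 of Cd79a, at most 1 of Rag1, at most 2 of H2-Aa and 0 of Fcer2a, Mki67 and Cd3e. A UMI (unique molecular identifier) stands for 1 captured transcript molecule. The choice gave 1414 cells, 10.1% of the 13933 mouse barcodes that passed the gene count filter (exact binomial interval 9.65 to 10.7%), of 34959 barcodes in the 5 tables of the series. They were set against 628 mature B cells of the same library, which met the same limits except that they held at least 1 UMI of Fcer2a and at least 3 of H2-Aa.

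The study profiled single cells by 10x 3'-end sequencing in meninges, the membranes around the brain, of C57BL/6 mice and in meninges and spleen of macaques. The mouse library pooled hashtag-labelled meningeal cells of male mice aged 2, 21 and 48 days, loaded at 30000 cells. The table does not say which cell came from which age, so no value here belongs to an age. Both B cell groups come from this 1 library: there is no replicate, no test was possible, and every interval given covers counting error only. The 2 groups differ by construction in H2-Aa and Fcer2a, and every other difference between them is a description of cells chosen by these values.

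B cells arise from pro-B and pre-B cells, which rearrange immunoglobulin genes with the RAG recombinase and test the heavy chain with a surrogate light chain. A cell that carries a complete IgM receptor is called immature, and in the bone marrow such cells are screened for reactivity with self antigens, by receptor editing of the light chain among other means. Transitional B cells are the recent emigrants. As they mature into follicular B cells they gain IgD, CD23 (the product of Fcer2a), CD21, homing receptors and high levels of MHC class II, and lose the early marker CD93.

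The cells carried most, but not all, of the markers given for the label. Levels are in CPM (counts per 1000000), the UMIs of a gene summed over the cells of a group and scaled to the total of that group, and ratios are class-II-low over mature. Vpreb3, a chaperone-like protein of the immature receptor, stood at 3428 CPM in class-II-low cells (interval 3387 to 3469) and at 498 CPM in mature cells. Cd93 stood at 136 CPM (128 to 144) in class-II-low cells and at 22.7 CPM (18.2 to 27.9) in mature cells, a ratio of 5.99 (4.82 to 7.51). Cd72, an inhibitory co-receptor, stood at 1150 and 278 CPM, Cd24a, the heat-stable antigen, at 1025 and 361 CPM, and Ighm, the IgM constant region, at 8768 and 4023 CPM, in class-II-low and mature cells in each case. Il4i1, a secreted amino acid oxidase, did not follow: it stood at 70.5 CPM in class-II-low cells and 77.4 CPM in mature cells, with a ratio of 0.911 (0.792 to 1.05). In the 91 cells with Fcer2a but at most 2 UMIs of H2-Aa, Il4i1 reached 241 CPM. Ighd, the IgD constant region, stood at 95.3 CPM in class-II-low and 828 CPM in mature cells.

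Markers of T, NK and myeloid cells were low in class-II-low cells. The 6 T cell markers summed to 47.9 CPM in class-II-low and 38.3 CPM in mature cells, against 3842 CPM in 2078 T and NK cells of the library, with Cd3e at 0 by the rule. The 4 NK markers summed to 23.3 and 22.9 CPM, and the 5 myeloid markers to 8.28 and 9.32 CPM, again in class-II-low and mature cells. The 4 plasmacytoid dendritic cell markers summed to 57.0 CPM in class-II-low cells and 8.06 CPM in mature cells. Most of this was Cox6a2, at 44.8 against 3.78 CPM in class-II-low and mature cells. Over otherwise matching cells with at least 3 UMIs of H2-Aa and no Fcer2a, its ratio was 1.37. Siglech stood at 5.27 against 1.51 CPM in class-II-low and mature cells. Of the endothelial and stromal markers, Pecam1 stood at 109 against 140 CPM, Col1a1 had 1 UMI in class-II-low cells, and Cldn5 and Dcn were at 0. The 5 plasma cell markers summed to 667 CPM in class-II-low and 387 CPM in mature cells, most of it Mzb1, a chaperone of immunoglobulin assembly, at 501 against 329 CPM. Of these UMIs, 10 or more lay in each of 46 class-II-low cells, with 455 in 1 of them, and in each of 4 mature cells. The 6 pro-B and pre-B markers summed to 242 against 59.7 CPM, with 10 or more such UMIs in 15 class-II-low cells and 161 in 1 of them; the part of these cells, and of those with plasma cell markers, in the results was not tested. The labels write the mouse sort as CD45–CD11b–, yet Ptprc, the gene of CD45, stood at 445 CPM in class-II-low and 547 CPM in mature cells. The median total was 5173.5 UMIs per class-II-low cell (1704 to 46767) and 5810 per mature cell, with 7971671 and 3968844 UMIs in all, and the median mitochondrial share was 5.66% and 5.44%. Of the mouse barcodes, 16 to 28 also occur in each macaque table.

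Summed levels changed by steps across the limits, and whether single cells grade into one another was not tested. In class-II-low cells with 0, 1 and 2 UMIs of H2-Aa (1090, 236 and 88 cells), Cd74, the invariant chain that escorts class II molecules, stood at 2897, 4027 and 6933 CPM. Just outside, in Fcer2a-negative cells with 3, 4 and 5 to 9 UMIs of H2-Aa (61, 54 and 152 cells), Cd74 stood at 7442, 8187 and 10218 CPM. Vpreb3 ran the other way, at 3566, 3068 and 2764 CPM inside the limit and 2309, 2554 and 2020 CPM outside it. It was lowest, at 733 CPM, in the 502 cells with 10 or more UMIs of H2-Aa. The median totals of the bins up to 9 UMIs lay between 5131 and 5423.5 UMIs, close to one another.

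At the Rag1 limit the steps were of similar kind. Of the class-II-low cells, 1261 held no Rag1 UMI and 153 held 1, and 77 and 161 otherwise matching cells held 2 and 3 or more. Over these 4 bins Sox4, a transcription factor of B cell precursors, stood at 374, 626, 855 and 1133 CPM, and Cd93 at 130, 188, 235 and 260 CPM. Il4i1 stood at 76.8, 16.8, 4.24 and 3.17 CPM over the same bins. The bin with 1 Rag1 UMI lay between the bins with 0 and with 2 in all 3 genes.

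Across the whole table, 378 of 5946 genes with at least 20 CPM in 1 of the groups were at least 2-fold higher in class-II-low cells (6.36%) and 247 were at least 2-fold lower (4.15%). Among the lower ones are H2-Aa and Fcer2a, which the choice of cells used. The median log2 ratio over all genes tested was 0.23, and 71.0% of them lay above 0. When the median ratio was scaled to 1, which removes a shift of 0.22 on the log2 scale, 249 genes were higher and 357 lower. Higher genes were then 41.1% of the calls, against 60.5% without this scaling. With both groups limited to cells between the 25th and 75th percentile of class-II-low totals, 574 genes were higher and 292 lower.

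**Figure D1:**
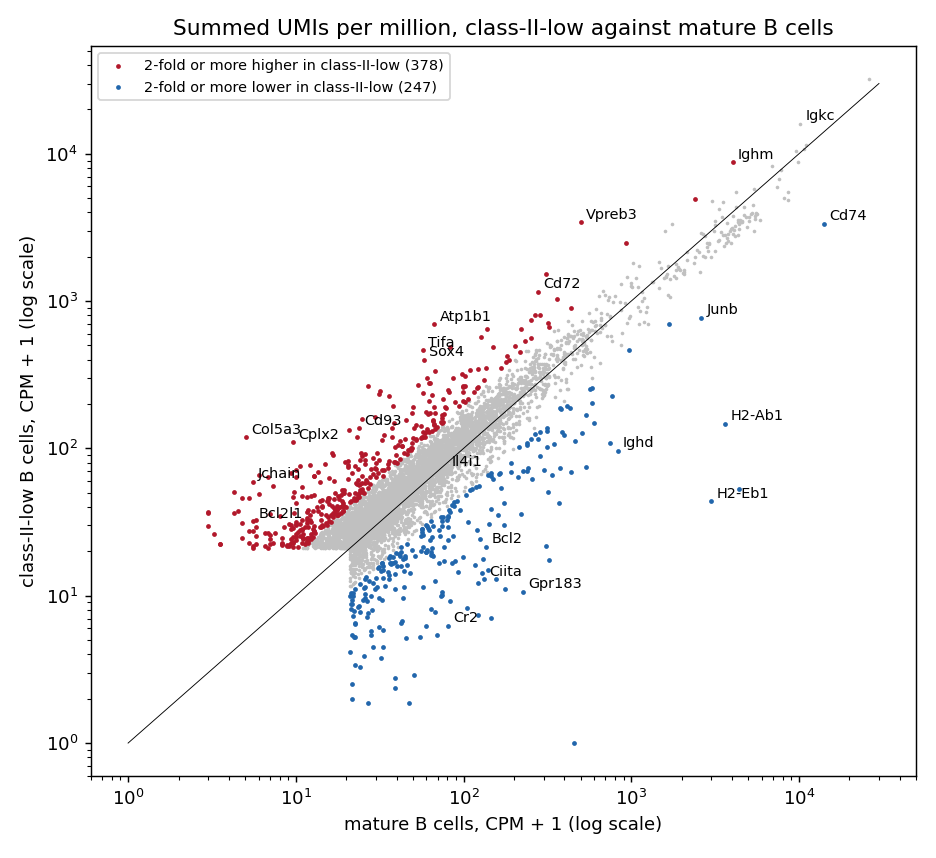
Each point is a gene; the vertical axis is its CPM plus 1 in class-II-low B cells and the horizontal axis its CPM plus 1 in mature B cells, both on log scales, and the line marks equal levels. The 378 genes at least 2-fold higher in class-II-low cells are red and the 247 lower ones blue; Il4i1 lies beside the line and Fcer2a, excluded by the rule, sits at the lower edge.

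The gene with the largest ratio was Col5a3, a chain of type V collagen, with 118 CPM in class-II-low cells and 4.03 CPM in mature cells, a ratio of 29.3 (18.0 to 51.5). It was found in 27.9% of class-II-low and 2.07% of mature cells, and no class-II-low cell held more than 1.70% of its UMIs. Jchain, which joins IgM and IgA into polymers, came next by ratio at 58.2 against 4.54 CPM, but 441 of its 464 UMIs lay in 2 cells, and without those cells it stood at 2.89 CPM. Cplx2, a complexin of vesicle fusion, stood at 109 and 8.57 CPM, Atp1b1, a sodium pump subunit, at 695 and 65.8 CPM, and Tifa, an adaptor of NF-kB signalling, at 463 and 56.2 CPM. Slamf9, a surface receptor of the SLAM family, stood at 63.5 against 5.80 CPM, and Akap12, a kinase scaffold, at 245 against 30.7 CPM. Sox4 stood at 400 against 56.9 CPM, a ratio of 7.02 (6.13 to 8.07). The other genes in this ranking were Gas7, Coq7, Uchl1, Ddah2, Adssl1, Myl4 and Nme7, with ratios from 6.92 to 12.8.

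The lowest ratios were led by class II genes. H2-Eb1 stood at 42.7 CPM in class-II-low and 2991 CPM in mature cells, a ratio of 0.0143 (0.0128 to 0.0159), and H2-Ab1 at 145 and 3620 CPM. Both lie beside H2-Aa on chromosome 17 of mm10, H2-Ab1 from 34257689 to 34269419 and H2-Eb1 from 34305867 to 34316674. Gpr183, a receptor for oxysterols that places B cells in follicles, stood at 9.66 against 225 CPM. Cr2, the gene of CD21, stood at 5.27 against 79.6 CPM, and Icosl, the ligand of the T cell receptor ICOS, at 4.39 against 68.3 CPM. Ly6a stood at 10.2 against 176 CPM and Stat4 at 7.28 against 104 CPM. Apoe, at 20.7 against 311 CPM, rested in part on 1 class-II-low cell with 38.8% of the UMIs of that group. Ms4a4c, Plaur, Gimap4, Gpr174, Hs3st1 and Ciita completed the ranking, with ratios from 0.0418 to 0.0906.

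**Figure D2:**
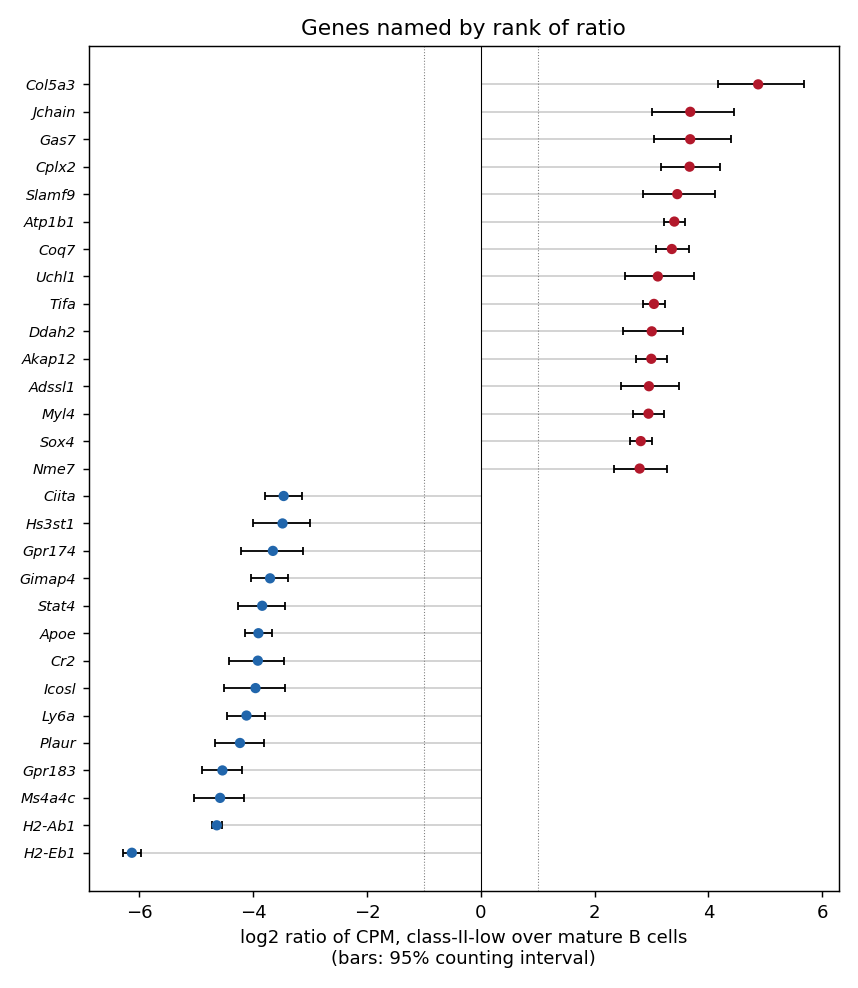
Points give the log2 ratio of CPM, class-II-low over mature B cells, for the genes named above by the size of their ratio, and bars the 95% counting interval; dotted lines mark 2-fold. Col5a3 lies at a ratio of 29.3 and H2-Eb1 at 0.0143; the Jchain value rests on 2 cells.

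Most genes of the class II pathway were lower. Of 21 listed genes besides H2-Aa, 19 passed the 20 CPM floor, 13 were at least 2-fold lower and none was higher, with a median log2 ratio of -2.08. Ciita, the master coactivator of class II genes, stood at 11.9 CPM in class-II-low and 132 CPM in mature cells. H2-DMa and H2-DMb2, which load peptide onto class II molecules, stood at 68.0 against 439 CPM and at 73.4 against 533 CPM. H2-Ob, an inhibitor of that loading, stood at 127 against 504 CPM. Cd74 stood at 3345 against 14166 CPM, a ratio of 0.236, a smaller gap than that of H2-Ab1, at 0.0401. The promoter-binding factors of the pathway did not share the gap: Rfx5 stood at 25.5 against 22.7 CPM and Nfyb at 89.9 against 51.9 CPM. Class I genes stayed within 2-fold, with 0 of 10 past it, where 6.36% of all genes tested were higher and 4.15% lower. All 10 lay below equal levels, with a median log2 ratio of -0.26, against 0.23 over all genes tested. B2m, the invariant class I light chain, stood at 1234 CPM in class-II-low and 1459.6 CPM in mature cells.

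T and NK cells, which should hold little class II transcript of their own, gave the background of these levels. In them H2-Ab1 stood at 39.8 CPM and H2-Eb1 at 18.1 CPM, against 145 and 42.7 CPM in class-II-low cells. Cd74 stood at 108 CPM in T and NK cells. After every cell was thinned to 1000 UMIs, H2-Ab1 was seen in 10.0% of class-II-low cells, 92.5% of mature cells and 2.79% of T and NK cells. Cd74 was seen in 72.2%, 100% and 5.49% of them in the same order. Before thinning H2-Ab1 was seen in 34.4%, 99.5% and 17.8%, at median totals of 5173.5, 5810 and 8482 UMIs.

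Genes of the immature and transitional stages were mostly higher. Of 30 listed genes, 23 passed the floor, 14 were at least 2-fold higher and 1 lower, with a median log2 ratio of 1.51. Some of these genes also stand in the transcription factor list or define the label. Myb, a transcription factor of precursors, stood at 224 CPM in class-II-low and 34.8 CPM in mature cells, and Cecr2, a chromatin remodelling subunit, at 237 against 56.2 CPM. The 1 lower gene was Ptpn22, a phosphatase of antigen receptor signalling, at 6.77 against 66.8 CPM. Cd93 had a UMI in 11.7% of class-II-low cells (10.1 to 13.5%) and 2.71% of mature cells after thinning to 1000 UMIs, and in 2.65% of T and NK cells. The mature share (1.58 to 4.30%) was close to that of T and NK cells (2.00 to 3.43%), and whether their Cd93 UMIs are free RNA was not tested. Without thinning these shares were 44.0%, 11.3% and 16.9%.

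Of the genes of V(D)J recombination and the surrogate light chain, 8 of 15 passed the floor and 5 were at least 2-fold higher, with none lower and a median log2 ratio of 2.13. Xrcc6, which encodes Ku70, stood at 81.2 CPM in class-II-low and 19.4 CPM in mature cells. Lig4, the ligase of the same repair pathway, stood at 49.6 against 8.82 CPM. The surrogate light chain genes Vpreb1 and Igll1 stood at 77.65 against 13.9 CPM and at 41.5 against 9.07 CPM. Their values turned on a few cells: 1 cell held 16.5% of the Vpreb1 UMIs. Between the 25th and 75th percentile of totals the ratio of Vpreb1 was 1.496, against 5.60 over all cells, and that of Igll1 was 0.996, against 4.58. Of 7 genes tested in the immunoglobulin constant region list, which includes the joining chain gene Jchain, Ighm, Iglc1 and Jchain were at least 2-fold higher and Ighd was lower. The ratio of Ighm was 2.18, but 1.87 under the scaling to the median ratio and 1.43 against H2-Aa-positive cells without Fcer2a. That of Jchain was 0.613 without cells above 3 times the median total, a limit chosen after seeing the data. Rag2 and Dntt lay under the floor, at 4.39 against 1.01 CPM and at 8.78 against 6.05 CPM.

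Genes of the receptor and its signalling chain lay on both sides. Over all genes tested, 6.36% were higher and 4.15% lower, with a median log2 ratio of 0.23. Of 34 receptor and co-receptor genes tested, 4 were at least 2-fold higher and 4 lower, with a median log2 ratio of 0.19. The higher ones were Cd72, Fcrla at 705 against 318 CPM, the adaptor Dok3 at 349 against 136 CPM, and Pik3ap1 at 37.4 against 16.6 CPM. The lower ones were Cr2, Bank1, a scaffold of receptor signalling, at 251 against 567 CPM, Malt1 at 125 against 264 CPM, and Rasgrp3 at 16.2 against 75.6 CPM. Under the scaling to the median ratio, Fcrla and Pik3ap1 had ratios of 1.90 and 1.93.

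Among 41 lineage transcription factors, 6 were at least 2-fold higher and 3 lower, with a median log2 ratio of 0.20. Beside Sox4 and Myb the higher ones were Zeb2 at 311 against 101 CPM, Spib at 801 against 266 CPM, Tcf3, the gene of E2A, at 290 against 132 CPM, and Lef1 at 48.9 against 24.4 CPM. The ratio of Lef1 was 2.00 and lay below 2 under most other settings, down to 1.29. The ratio of Tcf3 was 2.20, but 1.89 under the scaling to the median ratio. Against H2-Aa-positive cells without Fcer2a, Tcf3, Zeb2 and Spib had ratios of 1.68, 1.70 and 1.61. The 3 lower factors were of the Kruppel-like family. Klf2, a regulator of homing receptors, stood at 701 against 1681 CPM, Klf6 at 87.7 against 285 CPM and Klf3 at 29.0 against 73.1 CPM. Pax5, the B lineage identity factor, stood at 576 against 432 CPM and Ebf1 at 2981 against 1588 CPM, both within 2-fold.

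Genes of mature follicular B cells were lower in class-II-low cells: 16 of 26 were at least 2-fold lower and none higher, with a median log2 ratio of -1.61, and the list holds Fcer2a, which the rule set to 0. Ighd and Cr2 belong to it. Cd86, a costimulatory ligand, stood at 29.9 CPM in class-II-low and 141 CPM in mature cells, and Zfp318, which is needed for IgD splicing, at 41.6 against 172 CPM. Ltb, a ligand of lymphoid tissue organisation, stood at 228 against 767 CPM. Fcmr, the IgM Fc receptor, stood at 466 against 965 CPM. Tnfrsf13c, the receptor for the survival factor BAFF, was on the other side, at 627 against 345 CPM. Ighd had a UMI in 9.26% of class-II-low and 54.5% of mature cells after thinning, and in 0.434% of T and NK cells.

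Receptors for homing and positioning were mixed, with 2 of 24 at least 2-fold higher and 9 lower, and a median log2 ratio of -0.46. Among the lower ones, Ccr7, which guides cells to T cell zones, stood at 203 CPM in class-II-low and 581 CPM in mature cells, and Cxcr5, the follicle receptor, at 17.9 against 63.7 CPM. Itgb7 stood at 9.66 against 73.3 CPM and P2ry10 at 29.4 against 173 CPM. The 2 higher genes were Rgs16, a brake on chemokine receptor signalling, at 48.3 against 5.04 CPM, and Rgs10 at 28.0 against 8.57 CPM. Cxcr4, the receptor that holds cells in marrow, stood at 347 against 393 CPM, and S1pr1, which promotes exit from tissue, at 175 against 148 CPM.

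Immediate early genes were lower in class-II-low cells, 12 of 29 by at least 2-fold with 1 higher, at a median log2 ratio of -0.87. Nr4a1, a reporter of receptor signalling, stood at 41.5 CPM in class-II-low and 371 CPM in mature cells. Fos stood at 149 against 600 CPM, Junb at 767 against 2604 CPM, Myc at 16.7 against 130 CPM and Cd83 at 72.8 against 373 CPM. The 1 higher gene was Dusp5, a phosphatase of ERK, at 346 against 121 CPM. Fosb, Ier2, Ier5 and Dusp1 were also among the lower genes. Of 15 heat shock genes tested, Hsp90b1 was higher, and Hspa1a and Hsph1 were lower.

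In the survival list, 5 of 23 genes were at least 2-fold higher and 5 lower, and 2 anti-apoptotic genes lay on opposite sides. Bcl2 stood at 20.6 CPM in class-II-low and 136 CPM in mature cells, and Bcl2l1, the gene of BCL-XL, at 31.1 against 4.54 CPM. Bmf, a pro-apoptotic member of the family, stood at 74.3 against 19.4 CPM and Bak1 at 57.2 against 21.9 CPM. Bcl2a1b stood at 7.15 against 62.7 CPM, and its reads may be shared with near-identical Bcl2a1 copies. Of 13 cytokine receptors, Il7r, the receptor chain for IL-7, stood at 90.8 against 24.9 CPM and Il2ra at 31.5 against 4.79 CPM. Il2rg and Il10ra were the 2 lower ones.

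The remaining lists were mixed. Glycolysis (12 genes tested), cell cycle (21) and germinal centre genes (3) had none past 2-fold, and Mki67 was 0 by the rule. With 6.36% higher and 4.15% lower among all genes tested, a count of 0 in lists this short says little about them. Of 18 interferon response genes, none was higher and 2 were lower, Ly6a and Ifi206. Of 8 innate sensing genes, 2 were lower, Tlr1 and Ly86. Among 12 secretion genes 4 were higher: Jchain, Xbp1, Hsp90b1 and Edem1. In the list of B-1, marginal zone and age-associated genes, 2 of 11 were higher, Zeb2 and Cd1d1, and 4 were lower, among them Apoe and Notch2. Itgax and Tbx21, which mark age-associated B cells, stood at about 1 CPM or less in both groups.

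Placed between earlier and later cells of the same library, class-II-low cells took an intermediate level in part of the genes. Small pre-B cells had at least 2 UMIs of Rag1 and 0 of Ms4a1 (2287 cells, median total 5376 UMIs), and the cells called Rag1 and Ms4a1 cells had at least 2 of each (266 cells, 4906 UMIs), both with the same Cd79a, Mki67 and Cd3e limits. Over these, the class-II-low and the mature cells, 3537 genes reached 50 CPM in at least 1 group. From pre-B to mature, 813 of them were lower at every step and 285 higher at every step. The groups are ordered by the genes that chose them, so the order of the early and mature genes is a description. Il7r stood at 612, 317, 90.8 and 24.9 CPM along this order and Tifa at 1640.1, 1078, 463 and 56.2 CPM. Bcl2l1 stood at 132, 73.5, 31.1 and 4.54 CPM.

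**Figure D3:**
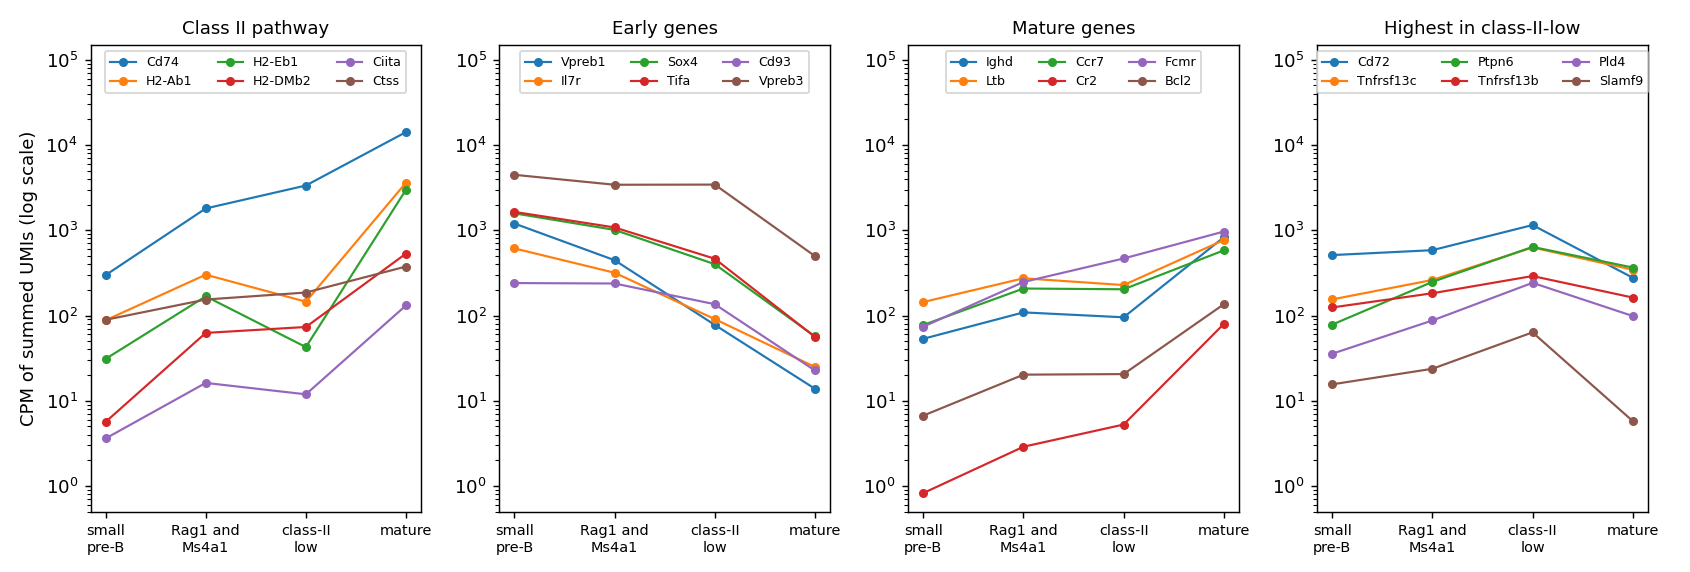
CPM on a log scale in 4 groups of the mouse library, from small pre-B cells to mature B cells, for 6 genes in each of 4 panels; each point is the summed value of 1 group. Il7r is 612, 317, 90.8 and 24.9 CPM along the order; class II genes are limited through H2-Aa in class-II-low cells but not in the Rag1 and Ms4a1 cells, of which Scrublet marked 24 as doublets.

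Against the cells with Rag1 and Ms4a1, 60 of 6024 genes were at least 2-fold higher in class-II-low cells (0.996%) and 181 lower (3%). Ms4a1, among the higher ones, and Rag1 and H2-Aa, among the lower ones, were used to choose the cells. The ranking below leaves them out. Ranked were genes with at least 50 CPM in the higher group, 100 UMIs in all and at most 20% of UMIs in 1 cell. The largest ratio among them was that of Ccnd2, a G1 cyclin, at 127 CPM in class-II-low and 24.3 CPM in Rag1 and Ms4a1 cells. Jchain, at 58.2 against 1.16 CPM, was left out by the limit on single cells. Lat2, an adaptor of receptor signalling, stood at 66.4 against 22.6 CPM. On the lower side stood Igll1 at 41.5 against 296 CPM, Vpreb1 at 77.65 against 445 CPM and Il7r at 90.8 against 317 CPM. Of the immature-stage markers, Vpreb3 was level, at 3428 against 3414 CPM. Ighm stood at 8768 against 8772 CPM, with 7.67% of its class-II-low UMIs in 1 cell. Cd93 was lower, at 136 against 237 CPM. Cd72, Cd24a and Il4i1 were higher, at 1150 against 584, 1025 against 789 and 70.5 against 25.5 CPM. In Rag1 and Ms4a1 cells, 36.4% of the 44 Il4i1 UMIs lay in 1 cell. Of the 266 Rag1 and Ms4a1 cells, Scrublet, a caller of doublets, marked 24. Without the marked cells, an alternative chosen after seeing the data, 82 genes were higher and 172 lower, and Igll1 and Vpreb1 stood at 194 and 301 CPM in the remaining 242 Rag1 and Ms4a1 cells.

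Class II levels of these 2 groups are not under the same limit, because the rule limits H2-Aa only in class-II-low cells. Cd74 stood at 3345 CPM in class-II-low and 1800 CPM in Rag1 and Ms4a1 cells, and H2-Eb1 at 42.7 against 168 CPM. Without the cells that Scrublet marked, the Rag1 and Ms4a1 cells stood at 1115 CPM of Cd74, 122 CPM of H2-Ab1 and 49.0 CPM of H2-Eb1. Under the same H2-Aa limit, cells with 0, 1, 2 and 3 or more Rag1 UMIs stood at 147, 132, 115 and 67.7 CPM of H2-Ab1 and at 3504, 1979, 974 and 969 CPM of Cd74. Both genes were lower in the bins with 2 and with 3 or more Rag1 UMIs than in the bin with 0.

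Against small pre-B cells, 226 of 6088 genes were at least 2-fold higher in class-II-low cells (3.71%) and 325 lower (5.34%). These counts include Ms4a1 and Rag1, which the choice of cells used and the ranking leaves out. In a ranking under the same limits, Il4i1 had the largest ratio, with 70.5 CPM in class-II-low cells and 1.88 CPM in small pre-B cells. Btla, an inhibitory receptor, stood at 106 against 8.44 CPM, Bank1 at 251 against 24.0 CPM and Cd83 at 72.8 against 8.06 CPM. Dntt, the terminal transferase of heavy chain joining, stood at 8.78 against 421 CPM, Rag2 at 4.39 against 68.1 CPM and Arpp21 at 3.39 against 91.5 CPM. Of the receptor list, 10 of 31 genes tested were at least 2-fold higher than in small pre-B cells and 1 lower.

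In 32 genes the class-II-low level was at least 1.5-fold above all 3 other groups. These genes were named after their values were seen. Leaving out Jchain, the largest gap was that of Hivep3, at 15.8, 23.7, 82.3 and 23.2 CPM in small pre-B, Rag1 and Ms4a1, class-II-low and mature cells. Pld4, an endolysosomal nuclease, stood at 35.6, 87.4, 242 and 98.8 CPM. Cd72 stood at 511, 584, 1150 and 278 CPM. Ptpn6, the gene of the phosphatase SHP-1, stood at 78.2, 248, 638 and 365 CPM. The BAFF-binding receptor genes Tnfrsf13c and Tnfrsf13b were in the set, Tnfrsf13c at 155, 261, 627 and 345 CPM and Tnfrsf13b at 124, 182, 290 and 163 CPM. Apart from Jchain, no single cell held more than 20% of the UMIs of any of them. Igkc was also in the set, 1.58-fold above the next group, but 10.0% of its UMIs lay in 1 cell. Its place above the 1.5-fold limit rests on that cell. The 3 other groups leave out the Fcer2a-negative cells with at least 3 UMIs of H2-Aa. Over those cells the ratio of Hivep3 was 1.49 and that of Grn, also in the set, was 1.33. Pld4 had a smaller ratio still, and Sh2b3, Stx7 and Dusp10 had ratios of 1.38, 1.46 and 1.496. These genes were therefore not 1.5-fold above that group. Others in the set were, among them Sept11 at 1.83 and Srpk3 at 1.72.

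The reverse, a level at least 1.5-fold below all 3 other groups, was seen in 22 genes, also named after their values were seen. Here too the other groups leave out the Fcer2a-negative cells with at least 3 UMIs of H2-Aa. Stat4 stood at 30.7, 22.003, 7.28 and 104 CPM in the same order, and Gimap4 at 41.2, 24.3, 11.9 and 155 CPM. Cd69, which retains lymphocytes in tissue, stood at 424, 386, 209 and 397 CPM. The phosphodiesterase gene Pde4b stood at 209, 171, 65.4 and 139 CPM, and Neurl3 at 108, 95.5, 34.5 and 160.5 CPM.

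Light chains divided the class-II-low cells. A mouse B cell normally carries either kappa, from the single constant gene Igkc, or lambda, from Iglc1, Iglc2 or Iglc3, and lambda is the minority. The lambda genes lie on chromosome 16, on the minus strand, and Igkc lies on chromosome 6 at 70726435 to 70726966 on the plus strand of GRCm38 (mm10). The last 300 coding bases before the stop codon of each lambda gene, read from the GENCODE M21 transcripts, are shown because all 3 genes are summed as lambda and because reads of Iglc2 and Iglc3 can be hard to assign. These stretches lie at chr16:19061755-19062054 (Iglc1), chr16:19198539-19198838 (Iglc2) and chr16:19065368-19065667 (Iglc3). Capitals in Iglc2 and Iglc3 mark the 11 bases at which this pair differs (96.3% identity), and capitals in Iglc1 mark its differences from Iglc2, to which it is 73.7% identical.
Iglc1: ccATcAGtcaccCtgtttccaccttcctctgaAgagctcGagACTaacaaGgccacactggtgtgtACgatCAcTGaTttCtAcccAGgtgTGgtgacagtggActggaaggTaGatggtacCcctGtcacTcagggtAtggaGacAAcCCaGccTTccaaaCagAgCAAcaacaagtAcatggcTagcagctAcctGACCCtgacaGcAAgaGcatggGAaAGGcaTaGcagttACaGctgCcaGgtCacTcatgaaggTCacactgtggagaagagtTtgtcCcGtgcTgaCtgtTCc
Iglc2: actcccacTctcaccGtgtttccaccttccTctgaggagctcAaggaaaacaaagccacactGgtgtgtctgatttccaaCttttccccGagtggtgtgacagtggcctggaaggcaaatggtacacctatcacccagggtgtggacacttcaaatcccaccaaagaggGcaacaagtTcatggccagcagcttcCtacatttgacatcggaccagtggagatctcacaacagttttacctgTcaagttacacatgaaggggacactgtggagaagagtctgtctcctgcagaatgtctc
Iglc3: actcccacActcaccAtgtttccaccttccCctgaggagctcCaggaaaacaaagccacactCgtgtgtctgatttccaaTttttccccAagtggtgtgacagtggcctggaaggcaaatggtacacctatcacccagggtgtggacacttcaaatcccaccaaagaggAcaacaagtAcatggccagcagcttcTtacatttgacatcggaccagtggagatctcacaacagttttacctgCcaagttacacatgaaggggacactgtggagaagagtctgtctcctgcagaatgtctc

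Among cells with at least 10 UMIs of these 4 genes, lambda made up 50% or more of the light chain UMIs in 300 of 1406 class-II-low cells, 21.3% (exact interval 19.2 to 23.6%). In mature cells it did so in 54 of 627, 8.61% (6.54 to 11.1%). In small pre-B cells the share was 27.4% of 1846 cells and in Rag1 and Ms4a1 cells 59.4% of 261, or 62.9% without the cells that Scrublet marked. With a limit of 90% the shares were 8.89% in class-II-low cells, 4.63% in mature cells, 11.3% in small pre-B cells and 29.9% in Rag1 and Ms4a1 cells. Within the class-II-low group, lambda was at 50% or more in 19.2% (17.1 to 21.5%) of cells with no Rag1 UMI and in 38.6% (30.8 to 46.8%) of cells with 1. It was 56.0% and 67.7% in otherwise matching cells with 2 and with 3 or more Rag1 UMIs.

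Between the extremes lay many cells. Of the class-II-low cells, 464 had kappa at 90% or more, 125 had lambda at 90% or more and 817 lay between, 133 of them between 40 and 60% lambda. The median class-II-low cell held 73 UMIs of Igkc and 18 of lambda, against 59 and 17 in mature cells. T and NK cells held a median of 1 and 0. Summed levels gave Igkc 15954.5 CPM in class-II-low and 10120 CPM in mature cells, and Iglc1 2493 and 934 CPM, while Iglc2 stood at 1724 and 1646 CPM. Counted from Iglc1 alone, 13.2% of class-II-low cells had lambda at 50% or more.

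**Figure D4:**
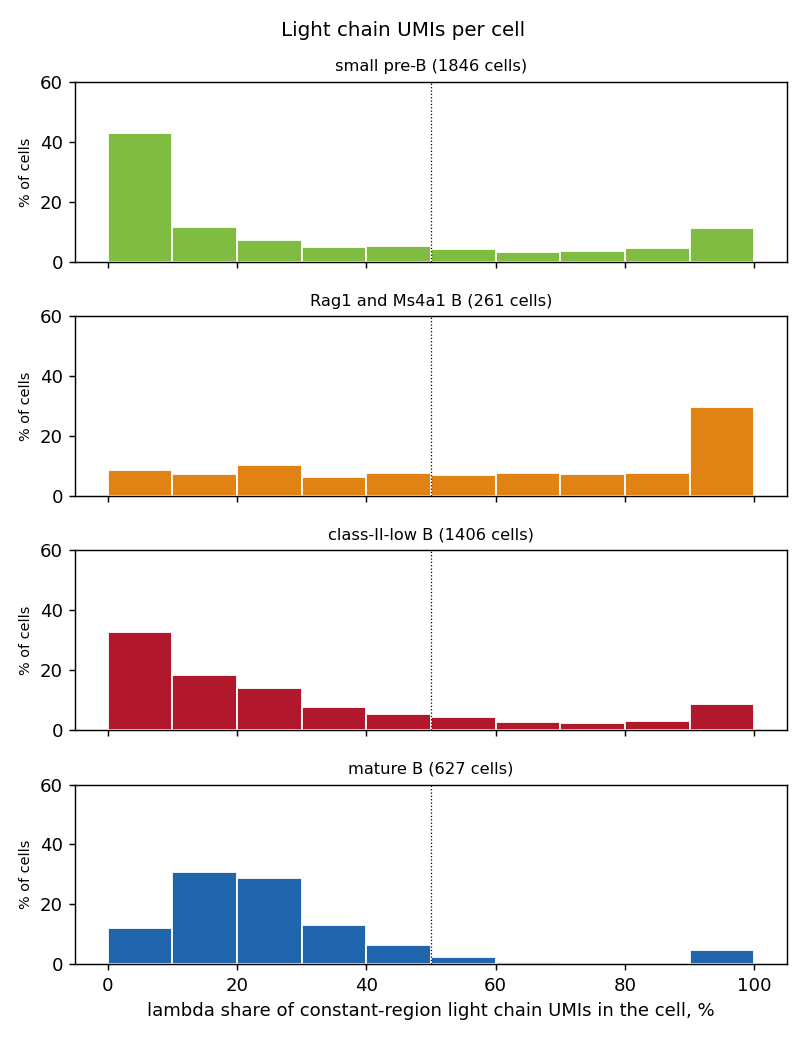
Percent of cells (vertical axis) by the lambda share of constant-region light chain UMIs in the cell (horizontal axis, bins of 10 percentage points) in 4 groups of the mouse library, among cells with at least 10 such UMIs; the dotted line marks 50%. In class-II-low cells 21.3% lie at or above it and in mature cells 8.61%, with Rag1 and Ms4a1 cells at 59.4%.

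Lambda-dominant class-II-low cells differed from the kappa-dominant ones by at least 2-fold in few genes, 46 of 5924 higher (0.777%) and 31 lower (0.523%). These counts include light chain genes that made the division, with Igkc among the lower ones. Median totals were 4546 UMIs in lambda-dominant and 5351.5 UMIs in kappa-dominant cells. The genes named from here on were chosen after their values were seen. Rag1, held to at most 1 UMI by the rule, stood at 40.4 CPM in lambda-dominant and 14.7 CPM in kappa-dominant cells, a ratio of 2.74 (1.95 to 3.84). Rag2 stood at 4.79 against 4.38 CPM, on 7 and 28 UMIs. Il2ra stood at 58.9 against 25.7 CPM, Pim2, a survival kinase, at 54.7 against 22.9 CPM, Cd55 at 221 against 101 CPM and Cd69 at 362 against 175 CPM. Reln and Cacna1e stood at 80.1 against 26.3 CPM and at 81.4 against 26.5 CPM. Ccnd2 was lower, at 58.9 against 126 CPM, as was Il4i1 at 38.3 against 78.4 CPM.

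The label marker Il4i1 marked a minority of the group. It had a UMI in 230 of 1414 class-II-low cells, 16.3%, and after thinning to 1000 UMIs in 5.23% of class-II-low, 6.05% of mature and 0.0963% of T and NK cells. Cells with an Il4i1 UMI held a median of 6002.5 UMIs and those without 5069.5, and the part of this gap in what follows was not tested. Of 5913 genes, 48 were at least 2-fold higher (0.812%) and 53 lower (0.896%) in the cells with Il4i1. Il4i1 itself, which made the division, is counted among the higher ones. Nfkbid, an inhibitor-like regulator of NF-kB, stood at 323 CPM in cells with and 72.5 CPM in cells without Il4i1. Cd83, an activation marker, stood at 169 against 50.4 CPM, Ccnd2 at 293 against 88.7 CPM, Egr3 at 52.0 against 16.5 CPM and Cd40 at 143 against 60.4 CPM. Bcl3, another NF-kB regulator, stood at 58.0 against 21.9 CPM.

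Other genes were lower in the cells with Il4i1. Col5a3 stood at 37.3 CPM in cells with and 137 CPM in cells without Il4i1, Atp1b1 at 329 against 780 CPM, Sox4 at 207 against 445 CPM and Il7r at 47.3 against 101 CPM. Rag1 stood at 6.66 against 22.1 CPM. Myb, at 197 against 231 CPM, and Vpreb3, at 2833 against 3566 CPM, lay within 2-fold. The class II gene H2-Ab1 did not separate, at 143 against 146 CPM, and Cd74 lay within 2-fold, at 5066 against 2946 CPM. Ighd stood at 107 against 92.6 CPM, with a ratio of 1.16 (0.968 to 1.38).

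Cd93 was the other label marker found in part of the cells. A Cd93 UMI was found in 622 cells, in 30.9% of the cells with Il4i1 and 46.5% of those without. Median totals were close, 5205.5 UMIs with and 5151 without Cd93. Of 5849 genes, 9 were at least 2-fold higher (0.154%) and 12 lower (0.205%) in the cells with Cd93. Cd93 itself, which made the division, is counted among the higher ones. Cd83 stood at 36.8 against 102 CPM and Egr3 at 10.1 against 33.8 CPM, both past 2-fold. Il7r, at 119 against 68.3 CPM, Myb, at 284 against 176 CPM, Atp1b1, at 856 against 565 CPM, and Cd74, at 2379 against 4125 CPM, lay within 2-fold.

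Ighd, the gene of IgD, was found in 473 class-II-low cells (median totals 5338 UMIs with and 5125 without). In them 11 of 5853 genes were at least 2-fold higher (0.188%) and 9 lower (0.154%). Ighd itself, which made the division, is counted among the higher ones. Bcl2 stood at 31.2 CPM in cells with and 14.8 CPM in cells without Ighd. H2-Eb1, at 61.1 against 32.8 CPM, H2-Ab1, at 185 against 124 CPM, and Ltb, at 323 against 177 CPM, lay within 2-fold. Cd93 was close, at 123 against 143 CPM.

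**Figure D5:**
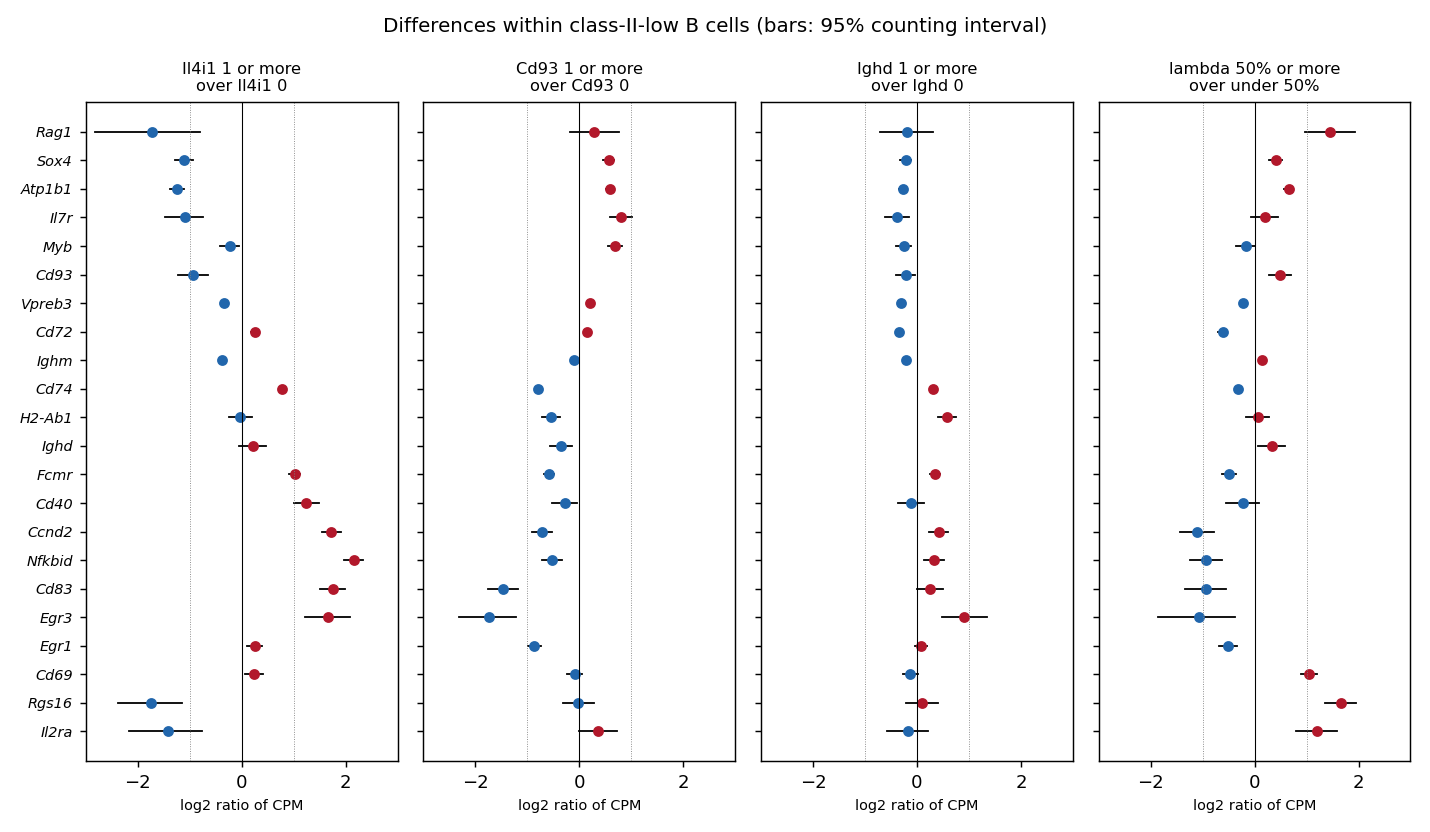
Log2 ratios of CPM (horizontal axis) for 22 genes in 4 divisions of the class-II-low B cells, with 95% counting intervals as bars, red above and blue below equal levels, and dotted lines at 2-fold; the gene that makes a division is left out of its panel. Cells with an Il4i1 UMI hold more Nfkbid, Cd83 and Ccnd2 and less Sox4 and Atp1b1 than cells without, and cells with a Cd93 UMI less Cd83 and Egr3.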

How the data were processed

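The mouse meningeal library and 4 macaque channels were deposited as raw UMI counts by gene and cell barcode. The submitters' processing notes name Cell Ranger and, for mouse, mm10, without a version of the tool. The macaque tables were used here only to count barcodes. Cells were chosen by UMI limits, their counts were summed per group and divided by the group total, and genes with at least 20 CPM in either group were compared. A gene counted as higher or lower at 2-fold. Ratios carry 95% conditional binomial intervals, levels exact Poisson intervals and shares Clopper-Pearson intervals, which cover counting error only. The ratio intervals were tested on simulated Poisson counts. Those counts hold no spread between cells, so the test cannot show how the intervals do with such spread. UMIs per cell are the depth behind each value, and with 1 mouse library no p-value is given. T and NK cells (at least 2 UMIs of Cd3e or 3 of Nkg7 and at most 1 of Cd79a, with a further limit on a gene that is not reported here) gave the background. Named genes are the 15 largest ratios each way with at least 50 CPM in the higher group and 100 UMIs in all, the members of 20 gene lists (at most 8 values a list) and the markers. Immunoglobulin variable genes, mitochondrial genes and unnamed gene models were left out. Rankings against the 2 earlier groups and by division of the cells also left out genes with more than 20% of UMIs in 1 cell. Genes by pattern over 4 groups and by division of the cells were chosen after their values were seen. The cells, lists and rules were chosen with earlier results of these data known. Scrublet marked 175 of 13933 barcodes (1.26%), among them 7 class-II-low cells, 0 mature cells, 24 of 266 Rag1 and Ms4a1 cells and 9 small pre-B cells; these stayed in except in an alternative. Python 3.11.15, numpy 2.4.6, scipy 1.17.1, pandas 2.3.3, scanpy 1.11.5 and matplotlib 3.10.9 were used. Coordinates and the lambda sequences come from GENCODE M21 on GRCm38.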

Additional observations from a re-analysis of the deposited data

How the results depend on the processing

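Limits: 1 library of pooled ages, no replicate, and cells chosen by the genes that define the contrast. No paired analysis was possible because the result comes from no test and the mouse data are 1 library. Counts of genes past 2-fold stayed within 1.5 times of 378 higher and 247 lower when cells were filtered on mitochondrial share, doublets, detected genes, H2-Aa or Rag1 at 0, immunoglobulin genes or very large totals. Scaling the median ratio to 1 gave 249 higher, and cells between the quartiles of class-II-low totals 574; the cause was not tested. Against H2-Aa-positive cells without Fcer2a, 120 were higher and 151 lower. Floors of 50 and 5 CPM gave 200 and 702 higher and 148 and 473 lower, and folds of 1.5 and 3 gave 1194 and 145 higher and 473 and 128 lower. Of 372 named genes, a change of direction was followed only in the 142 past 2-fold. Of these, 2 changed direction. Igll1 went to a ratio of 0.996 between the quartiles of totals. Jchain went to 0.613 without cells above 3 times the median total, a limit chosen after seeing the data. Ighm had a ratio of 1.999 there, just under 2-fold. Of 1701 values of the 142 genes past 2-fold, 1620 stayed past it. The lambda-dominant share was 13.2% from Iglc1 alone and otherwise between 20.7 and 21.5%, all chosen after seeing the data. Shares of class-II-low cells with a UMI depend on depth: thinned to 1000 UMIs, to 2000 and not at all, they were 11.7, 21.8 and 44.0% for Cd93, 9.26, 16.2 and 33.5% for Ighd, 5.23, 8.23 and 16.3% for Il4i1, 5.45, 8.94 and 17.5% for Cd83 and 0.495, 1.35 and 2.33% for Cr2.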

Other observations

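A few genes lay mostly in single cells. One class-II-low cell held 467 of the 604 Ttr UMIs of the group, the transthyretin gene of the choroid plexus, and 1 Rag1 and Ms4a1 cell held 8356 of 8449 UMIs of the haemoglobin gene Hbb-bs. The 2 class-II-low cells with most Jchain held 329 and 112 UMIs of it, and no other held more than 2. Cox6a2, a muscle-type subunit of cytochrome oxidase, had 357 UMIs in 188 class-II-low cells, with at most 13 in 1 cell, and 15 UMIs in mature cells. It stood at 44.8 CPM in class-II-low and 31.8 CPM in Rag1 and Ms4a1 cells. In small pre-B cells it had 457 UMIs, in 229 cells. Its ratio over H2-Aa-positive cells without Fcer2a was 1.37.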
